A study of Mus musculus with 30 samples.

Results

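The quantity described here is the interaction between genotype and interleukin-4 (IL-4) in mouse bone marrow-derived macrophages, the cells that grow out of marrow in medium conditioned by L929 fibroblasts, a source of macrophage colony-stimulating factor. For every gene it is the TRα1PV minus WT difference in IL-4-treated cells minus the same difference in untreated cells, on a log2 scale, computed over all genes. It draws on 4 groups of libraries, 20 libraries of the 30 in the series. They are WT cells left unpolarized (M0), TRα1PV cells left unpolarized, WT cells given 20 ng/mL IL-4 (M2), and TRα1PV cells given 20 ng/mL IL-4, each with 5 libraries labelled as biological replicates. All groups share 7 days of culture with L929-conditioned medium at 15 or 20%, and the labels do not say which library had which share, how long IL-4 was applied, or the age and sex of the mice. TRα1PV mice, called transgenic in the labels, carry a mutant thyroid hormone receptor α1, and no promoter or cell type for the mutant is given there. Nothing in the labels says that libraries came from separate mice, so the p-values measure the spread between these cultures or samples, which may be partly technical. A positive interaction means that the level in TRα1PV relative to WT was higher in M2 than in M0, and a negative one that it was lower.

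Thyroid hormone receptor α1 is a nuclear receptor that sits on DNA with retinoid X receptor, holds genes down through corepressors when no hormone is bound, and activates them when it binds triiodothyronine (T3). The PV mutant does not bind T3 and keeps its hold on corepressors, so that it works against the normal receptor. IL-4 signals through its receptor and the kinases JAK1 and JAK3 to the transcription factor STAT6, which turns on the genes of alternative activation such as Arg1, Retnla and Mrc1. Interferons signal through JAK kinases and STAT proteins to interferon-stimulated genes, and macrophages in culture keep a low tonic level of this program.

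The libraries held 23015952 to 59086252 reads in genes, and 15686 genes were tested. Csf1r, the receptor for macrophage colony-stimulating factor, stood at 4344 ± 598 CPM (counts per 1e6 reads in genes, mean ± SD, n = 5) in WT M0 and 4556 ± 522 in TRα1PV M0, and at 4115 ± 233 and 4058 ± 169.7 in M2. The first principal component of the 20 libraries, with 62.2% of the variance, separated M2 from M0, and on the second, with 12.0%, TRα1PV libraries scored higher than WT libraries of the same state. WT M0 replicate 2 stood apart from its group: its second-component score was 7.83, beside 9.24 to 33.0 in TRα1PV M0 and -44.0 to -18.7 in the other WT M0 libraries. It also had the highest share of reads outside genes in WT M0, 13.9%, and the highest share of mitochondrial reads, 4.56%. Counts that this library moved by over 1.5 times are given with and without it.

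With edgeR's quasi-likelihood test, 339 of the 15686 genes (2.16%) had an interaction at a Benjamini-Hochberg adjusted p under 0.05, the rule for a call throughout. Of these, 110 were called higher (0.701%) and 229 lower (1.46%). Without WT M0 replicate 2 the counts were 205 higher and 306 lower. The count of higher calls also depended on single TRα1PV libraries, since it was 72 without TRα1PV M0 replicate 1, 70 without TRα1PV M0 replicate 3 and 73 without TRα1PV M2 replicate 2. The median absolute size was 0.53 among the genes called higher, with 21 at 1 or more, and 0.84 among those called lower, with 90 at 1 or more. The median interaction over all genes tested was 0.01.

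Most calls were of genes whose genotype difference was present in M0 and not called in M2. Among the 229 genes called lower, 165 (72.0%) were higher in TRα1PV than in WT in M0 and had no call in M2, 29 had no call in M0 and were lower in TRα1PV in M2, and 17 were higher in M0 and lower in M2. A further 9 were higher in both states and 9 lower in both. Among the 110 called higher, 62 (56.4%) were lower in TRα1PV in M0 with no call in M2, 22 had a call only in M2, where they were higher, 12 were lower in both states, 11 changed from lower to higher, and 3 had a call in neither. Over all genes tested, the genotype difference was called for 4072 in M0 (26.0%; 12.0% higher and 14.0% lower) and 2055 in M2 (13.1%; 6.14% higher and 6.96% lower). The first count was 6143 without WT M0 replicate 2, and the second was 1353 without WT M2 replicate 1 and 1270 without WT M2 replicate 5. The interaction and these component differences are built from the same libraries, so their agreement for a gene is arithmetic and carries no separate evidence.

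**Figure D1:**
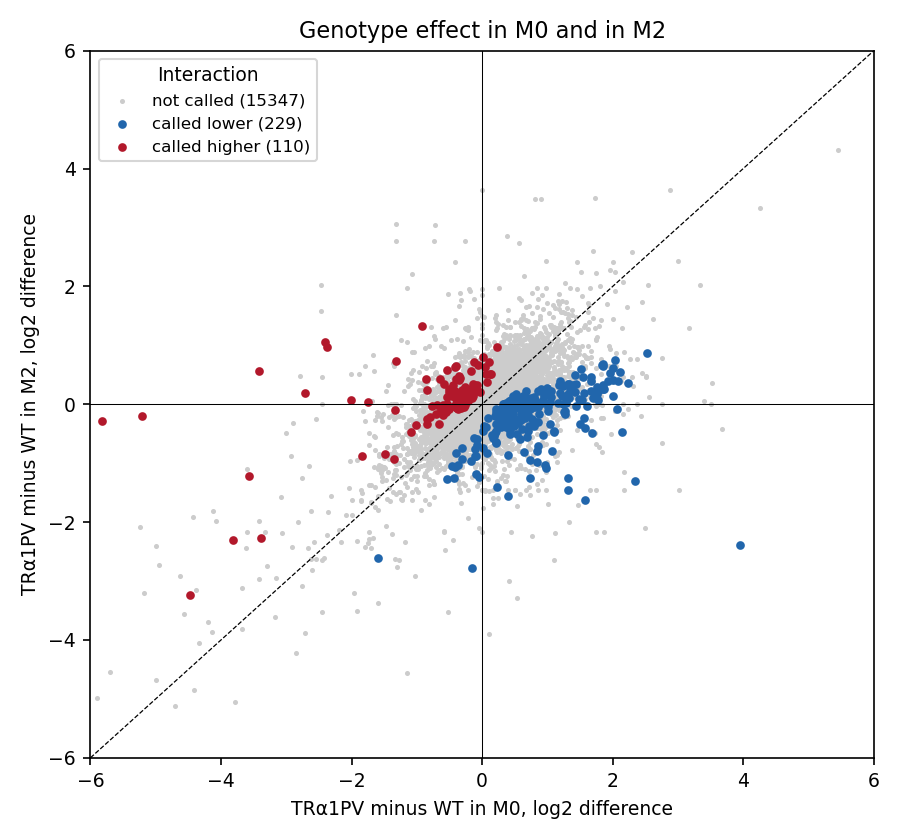
Log2 difference of TRα1PV from WT in M0 (horizontal) and in M2 (vertical) for the 15686 genes tested, 1 point per gene, from fits with 5 libraries per group. Blue points are the 229 genes called lower in the interaction, red points the 110 called higher, and the dashed line marks equal differences in both states. Most blue points lie right of zero and close to the horizontal axis.

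The same calls can be read as responses to IL-4 in each genotype. Of the 229 genes called lower, 108 fell with IL-4 in both genotypes, 56 fell in TRα1PV and had no call in WT, 18 rose in WT and fell in TRα1PV, 17 rose in WT with no call in TRα1PV, and 30 rose in both. Of the 110 called higher, 71 rose in both genotypes, 22 rose in TRα1PV with no call in WT, and 13 fell in WT with no call in TRα1PV. The background for these counts is wide, since 52.4% of all genes tested responded to IL-4 in WT and 57.7% in TRα1PV.

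Type I interferon-stimulated genes, which encode antiviral effectors and the sensors and factors that amplify the response, had the highest share of called members among the lists examined. Of 47 tested members, 36 were called lower (76.6%, against 1.46% of all genes tested) and 0 higher, and the median interaction was -1.06. No member was higher even at an unadjusted p under 0.05 in edgeR, or called higher by DESeq2 or limma-voom. The median genotype difference of the list was 1.22 in M0, where 46 members were called higher in TRα1PV (12.0% of all genes were), and 0.13 in M2, where 1 was (6.14% of all genes). The median response of the list to IL-4 was -0.63 in WT and -1.83 in TRα1PV. Over the 29 alternative analyses, 29 to 42 members were called lower, with 36 without WT M0 replicate 2.

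The summed level of the 48 listed genes, of which 1 had no read in any of the 4 groups, sets the same groups side by side without a fit. It is weighted to the most abundant members. It ranged over 2732 to 3935 CPM in WT M0 and 4838 to 8827 in TRα1PV M0, without overlap. In M2 it was 2067 to 2256 in WT and 1875 to 2988 in TRα1PV, where the WT libraries fell inside the TRα1PV range.

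**Figure D2:**
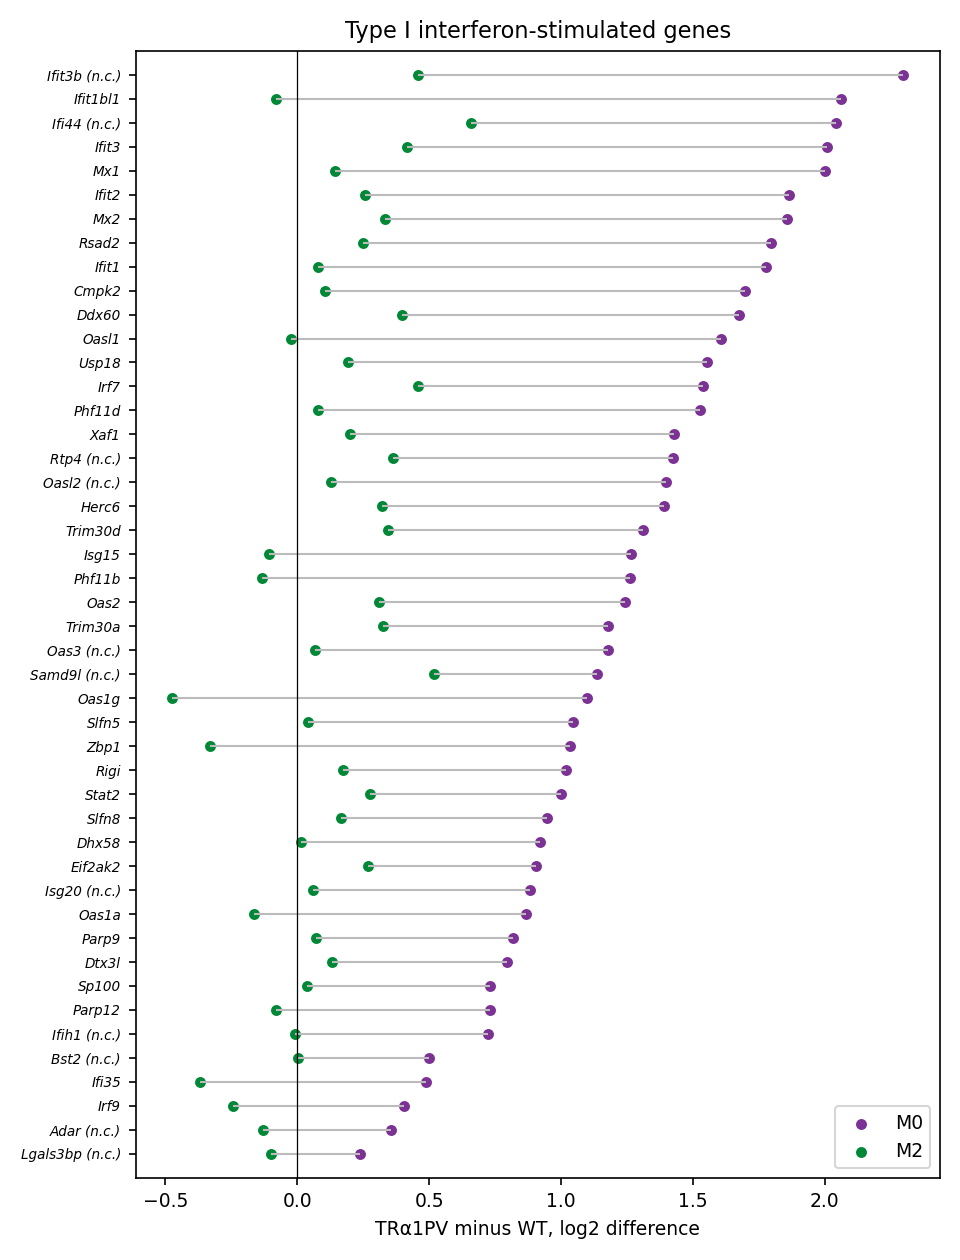
Log2 difference of TRα1PV from WT in M0 (purple) and in M2 (green) for 46 of the 47 tested type I interferon-stimulated genes, 1 row per gene, joined by a line whose length is the size of the interaction. Genes marked n.c. were not called in the interaction. All purple points lie above zero, and the green points lie between -0.47 and 0.66.

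Mx1, a dynamin-like GTPase that blocks viral replication, is given in full. WT M0 libraries had 50.6, 38.3, 42.5, 29.1 and 31.6 CPM, and TRα1PV M0 libraries 133, 174, 189, 193 and 79.4. WT M2 libraries had 12.8, 12.8, 12.9, 13.3 and 13.5, and TRα1PV M2 libraries 10.9, 12.4, 15.2, 21.1 and 12.2. The genotypes did not overlap in M0 and overlapped in M2, and TRα1PV M0 replicate 5 was the lowest of its group. Without that library 40 members of the list were called lower. The interaction was -1.86 ± 0.26 (log2 ± SE, adjusted p = 1.31e-04), made of a genotype difference of 2.00 ± 0.18 in M0 and 0.14 ± 0.19 in M2 (adjusted p = 0.637). Xaf1, a pro-apoptotic partner of the inhibitor XIAP, had an interaction of -1.23 ± 0.18 (adjusted p = 1.90e-04), with 22.1 ± 2.86 CPM in WT M0, 59.5 ± 12.8 in TRα1PV M0, 12.6 ± 0.464 in WT M2 and 14.4 ± 3.51 in TRα1PV M2. Parp12 and Parp9, of the ADP-ribosyltransferase family, had interactions of -0.81 ± 0.11 and -0.75 ± 0.11 (adjusted p = 1.31e-04 and 3.14e-04). Ifit1bl1, of the family that binds viral RNA, had -2.14 ± 0.49 (adjusted p = 0.0136), a call that limma-voom did not make. Slfn5, of the Schlafen family, had -1.0 ± 0.26 (adjusted p = 0.0355), and its call was lost in 15 of the 29 alternatives.

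The 11 members without a call were Ifit3b, Oas3, Oasl2, Isg20, Rtp4, Ifi44, Ifih1, Bst2, Samd9l, Lgals3bp and Adar. They are named here because they complete the list, and their interactions ranged from -1.84 in Ifit3b to -0.34 in Lgals3bp. Ifit, Oas and Phf11 genes have near-identical copies between which reads can be split, so values of single members of these families are uncertain.

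The interferon-γ-induced GTPases and their regulators, large GTPases that attack the vacuoles of intracellular microbes, followed the same direction. Of 28 listed and 27 tested members, 15 were called lower (55.6%, against 1.46% of all genes tested) and 0 higher. None was higher at an unadjusted p under 0.05 in edgeR or called higher by DESeq2 or limma-voom. The median interaction was -1.02, and the median genotype difference was 0.89 in M0 and -0.07 in M2. Unlike the first list, its median response to IL-4 was above zero in WT, 0.54, and below it in TRα1PV, -0.45. The summed level was 1061 to 1332 CPM in WT M0, 1448 to 2128 in TRα1PV M0, 1717 to 1935 in WT M2 and 1460 to 1867 in TRα1PV M2.

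Ifi47, an immunity-related GTPase, had the smallest p of all genes in the interaction. Its CPM values were 37.7, 27.4, 33.5, 20.1 and 27.6 in WT M0 and 74.6, 93.1, 86.3, 96.6 and 59.3 in TRα1PV M0. In M2 they were 49.6, 57.7, 58.8, 52.0 and 55.6 in WT and 56.0, 56.7, 53.4, 63.7 and 60.8 in TRα1PV. Its change with IL-4 was 0.90 ± 0.12 in WT and -0.50 ± 0.12 in TRα1PV, and the M2 levels of the genotypes overlapped. The interaction was -1.40 ± 0.17 (adjusted p = 4.86e-05). Irgm1, a regulator of the family, had 89.0, 65.9, 81.8, 61.9 and 67.7 CPM in WT M0 and 133, 159, 161, 181 and 106 in TRα1PV M0, then 67.3, 75.5, 76.5, 66.6 and 77.7 and 58.2, 64.7, 63.4, 83.5 and 67.5 in M2. Only its M0 groups were apart, and its interaction was -1.12 ± 0.16 (adjusted p = 1.31e-04). Igtp and Irgm2 had interactions of -1.14 ± 0.17 and -0.87 ± 0.14 (adjusted p = 3.14e-04 and 4.35e-04). Gbp2, a guanylate-binding protein, had -1.09 ± 0.22 (adjusted p = 0.00357).

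Together the 2 interferon lists supplied 51 of the 229 genes called lower (22.3%), so 178 lay outside them. Among those outside, Parp14, an ADP-ribosyltransferase that also acts as a STAT6 cofactor and was listed with the IL-4 pathway, had 317 ± 39.6 CPM in WT M0, 603 ± 99.4 in TRα1PV M0, 279 ± 14.1 in WT M2 and 294 ± 41.8 in TRα1PV M2, with an interaction of -0.85 ± 0.15 (adjusted p = 0.00123). Phf11a, a PHD-finger gene, had the most negative interaction of the named genes, -2.17 ± 0.33 (adjusted p = 2.77e-04), at low levels of 7.71 ± 2.26 CPM in TRα1PV M0 and 0.998 ± 0.376 in TRα1PV M2.

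**Figure D3:**
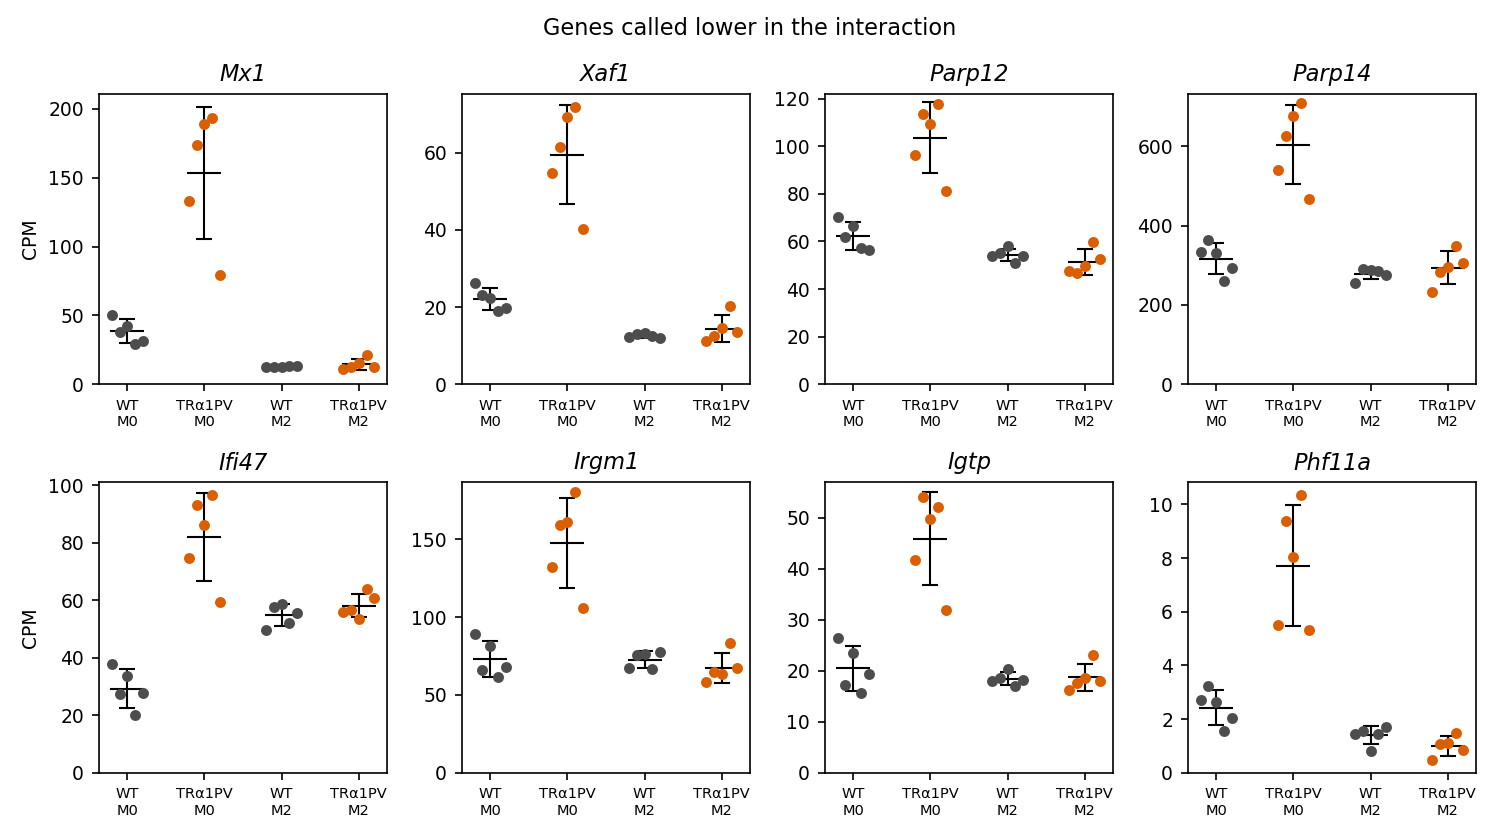
CPM of 8 genes called lower in the interaction, 6 of them in the interferon lists, 1 point per library, with 5 libraries per group. The horizontal mark and bars are the mean and SD, WT is grey and TRα1PV orange, and each panel has its own axis from 0. In each panel the TRα1PV M0 libraries lie above the WT M0 libraries and the M2 groups overlap.

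Upstream genes of the pathway were also examined. Among 22 receptors and nucleic-acid sensors, 4 were called lower (18.2%, against 1.46% of all genes tested) and 0 higher, with a median of -0.33. None was higher at an unadjusted p under 0.05 in edgeR or called higher by DESeq2 or limma-voom. The count of lower calls was 8 without WT M0 replicate 2. Ifi209 and Ifi204, of the cytosolic DNA-sensing HIN-200 family, had -1.43 ± 0.31 and -1.0 ± 0.23 (adjusted p = 0.00692 and 0.0142). Tlr9, the endosomal receptor for CpG DNA, had -0.51 ± 0.11 (adjusted p = 0.00762), and Cgas, which makes the second messenger cGAMP, -0.60 ± 0.15 (adjusted p = 0.0206). The call of Cgas was lost in 3 of 29 alternatives, without WT M0 replicate 4, WT M2 replicate 4 or TRα1PV M2 replicate 3. The receptor chains Ifnar1, Ifnar2 and Ifngr1, named after their values were seen, had -0.15 ± 0.07, -0.15 ± 0.07 and -0.20 ± 0.09, with adjusted p = 0.356, 0.319 and 0.338. The interferon gene Ifnb1 had at most a mean of 0.0445 CPM in any of the 4 groups, too few reads for a comparison.

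Promoter letters were read for these genes because many calls fell in interferon lists. The interferon-stimulated response element, to which complexes with IRF proteins bind, was searched as GAAA and GAAA with any 2 bases between, on both strands, in the 250 bases before each start of transcription in RefSeq's table for GRCm38.p6, which is not the GRCm39 build of the counts. A window was found for 10441 tested genes, 90 of those called higher and 173 of those called lower. A gene with more than 1 start was counted once if any window held the motif. The motif was in 3.46% of all tested genes with a window, 2.22% of those called higher and 22.5% of those called lower (39 of 173). It was in 72.2% of the GTPase list, 44.7% of the type I list, and 11.2% (15 of 134) of the genes called lower outside both lists. The STAT motif, TTC and GAA with 3 bases between, was in 7.04%, 5.56% and 14.5% of all, higher and lower genes, and the STAT6 spacing, with 4 bases between, in 5.86%, 10.0% and 6.36%. The thyroid hormone receptor element of AGGTCA and AGGTCA with 4 bases between was in 0 of the 13245 windows of all tested genes. A search for these exact letters therefore cannot tell the gene sets apart. Of the 42 windows of genes called lower that held the response element, 8 also held the STAT motif, and in 1 of them the matches shared bases. A match is a description of letters and was not tested for binding.

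The stretches around the element in 6 genes called lower are shown 5′ to 3′ on the gene's strand, with the matched letters in capitals. They show how alike the neighbouring genes are. Those of Irgm1, Igtp and Phf11a run to the start, and the others stop short of it. The first matched base lay 30 (Irgm1), 34 (Igtp), 64 (Irgm2), 59 (Gbp2), 29 (Phf11a) and 64 (Calhm6) bases before the start. All 6 have matches near the start. Other genes called lower had matches farther away, among them Cxcl10 (213 bases), E2f8 (231) and Slfn5 (155), and are not shown. Of the 52 matches in genes called lower, 37 began within 100 bases of the start.
Irgm1: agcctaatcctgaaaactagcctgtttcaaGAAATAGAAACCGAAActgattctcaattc
Igtp: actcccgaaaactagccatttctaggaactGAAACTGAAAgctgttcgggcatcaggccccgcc
Irgm2: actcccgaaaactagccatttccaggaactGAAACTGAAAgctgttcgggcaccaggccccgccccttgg
Gbp2: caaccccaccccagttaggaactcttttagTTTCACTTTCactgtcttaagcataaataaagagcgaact
Phf11a: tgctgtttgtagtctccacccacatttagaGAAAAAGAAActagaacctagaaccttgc
Calhm6: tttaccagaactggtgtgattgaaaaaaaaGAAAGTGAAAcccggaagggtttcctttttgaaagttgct
They lie at chr11:48871421-48871480 on the minus strand, chr11:58199492-58199555 on the plus strand, chr11:58214883-58214952 on the plus strand, chr3:142620574-142620643 on the plus strand, chr14:59297523-59297581 on the minus strand and chr10:34127997-34128066 on the minus strand (GRCm38.p6), all before the start of the gene. Irgm1 held 2 overlapping matches, and the Igtp and Irgm2 stretches carry the same matched letters.

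Genes of inflammatory signalling and migration supplied smaller numbers, all in the lower direction among the calls. Classical activation genes had 5 of 26 called lower, MHC class II and costimulatory genes 3 of 22, chemokine receptors 3 of 12, and chemokines and cytokines 3 of 32, against 1.46% of all genes tested. The second count was 6 without TRα1PV M2 replicate 1. The first was 3 to 6 with 1 library left out, and 3 on leaving out any one of replicate 4 of each group, WT M0 replicate 5, WT M2 replicate 3, TRα1PV M0 replicates 2 and 3, and TRα1PV M2 replicates 3 and 5. None of the 4 lists had a member called higher by edgeR. At an unadjusted p under 0.05, 0, 0, 1 and 4 members were higher, and DESeq2 and limma-voom each called 0, 0, 1 and 1. Ccr1, a receptor for inflammatory CC chemokines, had 18.9, 25.1, 20.9, 11.4 and 20.8 CPM in WT M0 and 52.5, 50.5, 54.5, 41.6 and 29.4 in TRα1PV M0. Its M2 values were 52.4, 57.1, 50.3, 47.6 and 43.4 in WT and 56.5, 54.2, 54.3, 47.9 and 38.3 in TRα1PV. WT rose with IL-4 to the range of TRα1PV, whose own change did not pass the test, and the interaction was -1.24 ± 0.25 (adjusted p = 0.00425). Ccr2, the receptor for monocyte chemoattractants, had -1.63 ± 0.37 (adjusted p = 0.0126) and was called higher in TRα1PV in M0 and lower in M2, with group ranges that overlapped in both states. Cxcl10, an interferon-induced chemokine, had -1.68 ± 0.39 (adjusted p = 0.0132), from 11.2 ± 2.42 and 47.0 ± 16.4 CPM in M0 to 1.57 ± 0.174 and 2.00 ± 0.716 in M2, a call that limma-voom did not make. Cd40, the costimulatory receptor, and Icosl, the ligand of ICOS, had -0.80 ± 0.16 and -0.69 ± 0.13 (adjusted p = 0.00330 and 0.00316). Tnfsf10, the death ligand TRAIL, had -1.59 ± 0.32 (adjusted p = 0.00393). Fcgr1, the high-affinity Fcγ receptor, and Itgam, the integrin CD11b, had -0.63 ± 0.15 and -0.77 ± 0.16 (adjusted p = 0.0134 and 0.00543), and for Itgam the genotype ranges were apart in M2 and overlapped in M0. Both are among 16 macrophage identity markers, of which these 2 were called lower and 1 higher, the lysosomal glycoprotein Cd68 (0.40 ± 0.10, adjusted p = 0.0202). These calls were 18.8% of the markers, against 2.16% of all genes tested. With the replicate block within genotype Cd68 had an adjusted p of 0.0536, and with no filter on low counts 0.0537.

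Inflammatory monocyte markers were examined beside these genes. Of 11 tested, with a median interaction of -0.17 and 6 below and 5 above zero, 2 were called lower (1.46% of all genes were), Ccr2 and Ms4a6c (-0.61 ± 0.17, adjusted p = 0.0466, lost in 15 of 29 alternatives). Without Chil3, which IL-4 itself induces, the summed level of the marker list was 864 to 1017 CPM in WT M0, 1662 to 2072 in TRα1PV M0, 173 to 238 in WT M2 and 272 to 325 in TRα1PV M2. The genotypes did not overlap in either state. The marker F13a1 alone had 423 to 508 CPM in WT M0 and 968 to 1114 in TRα1PV M0. In M2 it had 34.6 to 56.05 in WT and 125 to 149 in TRα1PV. Of the 11 tested markers, 6 were called higher in TRα1PV in M0 and 1 lower (12.0% and 14.0% of all genes were). In M2, 3 were called higher and 2 lower (6.14% and 6.96% of all genes were). In bulk RNA, more cells of a type and more RNA of its genes per cell cannot be told apart, and the part of monocyte-like cells in the interferon results was not tested.

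Genes whose genotype difference changed sign between the states were few. There were 28 with calls of opposite sign in M0 and M2. Tagap, which encodes a GTPase-activating protein, had 23.7, 17.2, 18.4, 17.6 and 16.2 CPM in WT M0 and 29.7, 36.0, 30.3, 25.2 and 24.3 in TRα1PV M0, and 7.51, 8.83, 7.28, 8.81 and 9.55 in WT M2 and 4.42, 5.56, 4.23, 5.04 and 4.77 in TRα1PV M2. TRα1PV was the higher genotype in M0 and the lower in M2, without overlap in either state, and the interaction was -1.45 ± 0.20 (adjusted p = 1.21e-04). Rnase6, an antimicrobial ribonuclease, rose with IL-4 by 2.23 ± 0.13 in WT and 0.98 ± 0.13 in TRα1PV. It reached 53.7 ± 4.76 CPM in WT M2 and 29.7 ± 1.87 in TRα1PV M2 (interaction -1.25 ± 0.18, adjusted p = 1.67e-04). Frmd4a, a scaffold of cell polarity, had -0.83 ± 0.14 (adjusted p = 6.46e-04), with 0.51 ± 0.10 in M0 and -0.32 ± 0.10 in M2. Tpst1, a tyrosylprotein sulfotransferase, had -0.89 ± 0.12 (adjusted p = 9.82e-05) and a genotype call only in M0, and Calhm6, of the calcium homeostasis modulator family, had -0.85 ± 0.12 (adjusted p = 2.08e-04) and a genotype call only in M2. St8sia1, the GD3 ganglioside synthase, and Il1rl1, the IL-33 receptor, rose with IL-4 in both genotypes, from M0 levels that were higher in TRα1PV. Their interactions were -1.87 ± 0.40 and -1.82 ± 0.40 (adjusted p = 0.00611 and 0.0108), the first not called by limma-voom, and St8sia1 stood at only 0.0468 ± 0.0121 CPM in WT M0 and 0.229 ± 0.0581 in TRα1PV M0.

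Among the genes called higher at a mean of at least 1 CPM, Klf9 had the smallest p. Klf9 encodes a Krüppel-like factor and is a well-known direct target of the T3-bound receptor. It had 14.4, 16.9, 14.4, 14.4 and 16.8 CPM in WT M0 and 1.33, 0.812, 0.930, 1.20 and 1.19 in TRα1PV M0. With IL-4 it had 66.4, 74.3, 69.6, 82.0 and 59.96 in WT and 14.6, 17.3, 14.1, 13.8 and 11.5 in TRα1PV. IL-4 raised Klf9 in both genotypes, by 2.2 ± 0.12 in WT and 3.70 ± 0.15 in TRα1PV, and the TRα1PV libraries stayed below WT in each state without overlap. The genotype difference was -3.81 ± 0.15 in M0 and -2.31 ± 0.12 in M2, and the interaction 1.51 ± 0.19 (adjusted p = 4.86e-05).

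Of 30 listed T3-responsive genes, 19 had enough reads to be tested, and of these 4 were called higher (21.1%, against 0.701% of all genes) and 0 lower, where 1 was lower at an unadjusted p under 0.05 and 0 were called lower by DESeq2 or limma-voom. The median interaction of the list was 0.07, and its median genotype difference was -0.36 in M0, with 12 members called lower in TRα1PV (14.0% of all genes were) and 0 higher. Besides Klf9 the called members were Acaca and Fasn, the enzymes that start and carry out fatty acid synthesis, and Atp2a2, the calcium pump SERCA2. Acaca had 20.3 ± 1.70 CPM in WT M0, 14.6 ± 0.633 in TRα1PV M0, 47.3 ± 5.86 in WT M2 and 52.4 ± 1.93 in TRα1PV M2, with an interaction of 0.62 ± 0.11 (adjusted p = 0.00163). Fasn and Atp2a2 had 0.72 ± 0.15 and 0.29 ± 0.07 (adjusted p = 0.00602 and 0.0198), and the call of Atp2a2 was lost in 3 of 29 alternatives. These 3 were lower in TRα1PV in M0 and had no genotype call in M2.

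The receptors themselves had no called interaction. Thra, the gene of the mutated receptor, counted without regard to allele, had 26.9, 24.3, 22.3, 25.8 and 23.0 CPM in WT M0 and 58.2, 61.1, 56.9, 50.8 and 53.5 in TRα1PV M0. In M2 it had 18.1, 15.6, 16.4, 17.3 and 16.6 in WT and 46.3, 43.3, 43.6, 41.7 and 42.0 in TRα1PV. It was thus higher in TRα1PV in both states, by 1.20 ± 0.10 and 1.37 ± 0.10, without overlap, and the interaction was 0.17 ± 0.14 (adjusted p = 0.762). Thrb rose with IL-4 in both genotypes, from 0.362 ± 0.0660 to 4.94 ± 1.24 CPM in WT and from 0.184 ± 0.110 to 4.86 ± 0.641 in TRα1PV, with an interaction of 0.83 ± 0.36 (adjusted p = 0.334). Of the 25 receptors, transporters and cofactors tested, 1 was called (4%, near the 2.16% of all genes tested). It was Slco3a1, an organic anion transporter, with -1.18 ± 0.23 (adjusted p = 0.00384).

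Kdm6b, the histone H3 lysine demethylase JMJD3 that was listed with the IL-4 and STAT6 pathway, had 43.5, 48.6, 47.0, 47.7 and 45.4 CPM in WT M0 and 22.2, 24.0, 24.1, 19.9 and 19.2 in TRα1PV M0. With IL-4 it had 46.8, 43.5, 49.6, 47.9 and 50 in WT and 32.4, 35.1, 38.0, 34.4 and 31.8 in TRα1PV. IL-4 moved it in TRα1PV by 0.65 ± 0.07 and in WT by 0.03 ± 0.07 (adjusted p = 0.705), and TRα1PV stayed the lower genotype in both states. The interaction was 0.61 ± 0.10 (adjusted p = 3.85e-04). Cish, a suppressor of cytokine signalling that STAT proteins induce, rose from 1.88 ± 0.406 to 81.7 ± 4.99 CPM in WT and from 0.529 ± 0.137 to 44.7 ± 6.75 in TRα1PV, with an interaction of 0.97 ± 0.24 (adjusted p = 0.0210). Its call was lost in 3 of 29 alternatives.

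The genes that define alternative activation responded to IL-4 in both genotypes with similar medians. The median IL-4 response over 34 tested members was 4.57 in WT and 4.55 in TRα1PV, and the median interaction was -0.08. Members that differ in opposite directions offset each other in these medians. Of the 34, 2 were called higher, Cish and Fn1, and 3 lower, Batf3, Mgl2 and Clec10a (named to complete the count, -0.60 ± 0.16, adjusted p = 0.0384). These calls were 14.7% of the list, against 2.16% of all genes tested. At an unadjusted p under 0.05 in edgeR, 17.6% of members were higher and 23.5% lower, against 5.83% and 5.75% of all genes tested. Fn1, fibronectin, had 1.29 ± 0.33 (adjusted p = 0.0314) and lost its call in 13 of 29 alternatives. Mgl2, a galactose-type lectin, had -0.75 ± 0.19 (adjusted p = 0.0215) and lost it in 7, and Batf3, a transcription factor of dendritic cells, had -1.02 ± 0.25 (adjusted p = 0.0210) and lost it in 3. Retnla, the resistin-like secreted protein RELMα, stood at 10040 ± 1005 CPM in WT M2 and 11050 ± 1104 in TRα1PV M2, with an interaction of 1.06 ± 0.38 (adjusted p = 0.186). Chil3, a chitinase-like protein, had -1.19 ± 0.35 (adjusted p = 0.0744), Mrc1, the mannose receptor, -0.20 ± 0.19 (adjusted p = 0.838), and Arg1, arginase 1, named after its values were seen, 1.42 ± 0.57 (adjusted p = 0.265). None of these 4 passed the test, though Chil3 did in 7 of the 29 alternatives (lowest adjusted p = 8.53e-04, without WT M0 replicate 1; 0.0418 and 0.0472 without TRα1PV M0 replicate 4 and 5; 0.0077 with the replicate block). A miss of the threshold does not show that the genotypes responded alike.

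Of the IL-4 receptor and STAT6 pathway list, 29 members were tested, 2 were called higher, Kdm6b and Irs2, and 1 lower, Parp14. These calls were 10.3% of the list, against 2.16% of all genes tested. Irs2, the insulin receptor substrate that docks to the IL-4 receptor, had 0.43 ± 0.12 (adjusted p = 0.0438), a call lost in 15 of 29 alternatives. Il4ra and Stat6, named after their values were seen, had -0.12 ± 0.18 and 0.02 ± 0.07 (adjusted p = 0.934 and 0.981).

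**Figure D4:**
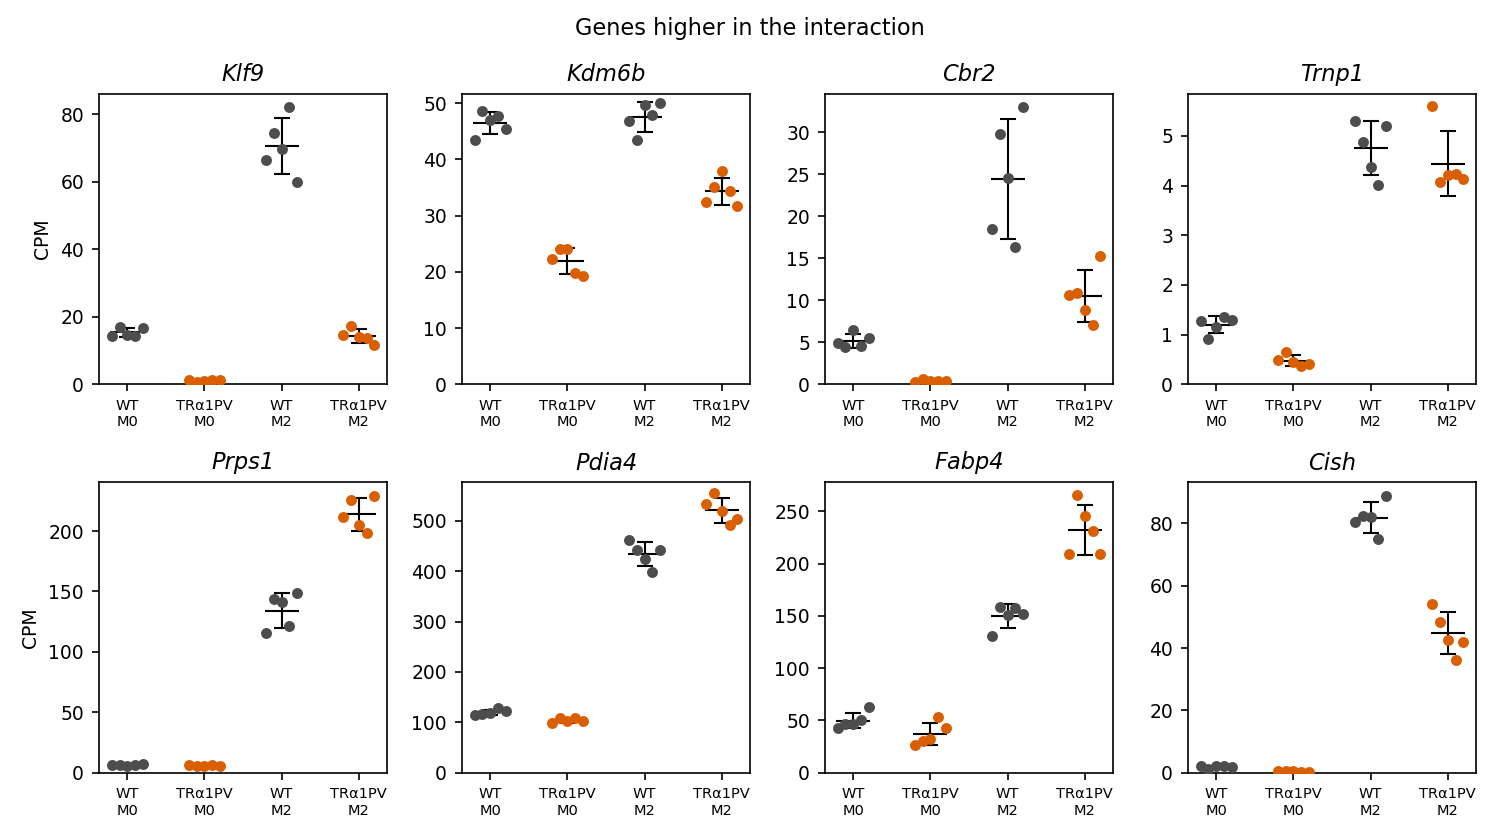
CPM of 8 genes called higher in the interaction, 1 point per library, with 5 libraries per group. The horizontal mark and bars are the mean and SD, WT is grey and TRα1PV orange, and each panel has its own axis from 0. Klf9, Kdm6b, Cbr2 and Cish stay lower in TRα1PV in both states, whereas Prps1, Pdia4 and Fabp4 are higher in TRα1PV in M2 and Trnp1 overlaps there.

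Among the genes called higher, 22 had a genotype call only in M2. Prps1, which makes the ribose-phosphate precursor of nucleotides, had 6.12, 6.25, 5.72, 6.15 and 7.03 CPM in WT M0 and 6.03, 5.92, 5.66, 6.55 and 5.77 in TRα1PV M0, ranges that overlap. With IL-4 it had 116, 143, 141, 121 and 149 in WT and 211, 226, 205, 198 and 229 in TRα1PV, with every TRα1PV library above every WT library. In M0 the genotypes differed by -0.06 ± 0.08 (adjusted p = 0.631), against 0.67 ± 0.07 in M2, for an interaction of 0.73 ± 0.11 (adjusted p = 2.71e-04). IL-4 raised Prps1 by 4.42 ± 0.09 in WT and 5.16 ± 0.09 in TRα1PV. Stt3b, a catalytic subunit of the oligosaccharyltransferase, was called in both states and had 0.41 ± 0.07 (adjusted p = 8.34e-04), with -0.14 ± 0.05 in M0 and 0.26 ± 0.05 in M2. Of 32 unfolded protein response genes, 2 were called higher (0.701% of all genes were) and 0 lower (2 lower at an unadjusted p under 0.05, and 0 by DESeq2 or limma-voom). The count of higher members was 5 without WT M0 replicate 2 and 4 without TRα1PV M0 replicate 4. They were the endoplasmic reticulum proteins Pdia4, a disulfide isomerase, with 0.47 ± 0.07 (adjusted p = 3.29e-04), and Calr, calreticulin, with 0.43 ± 0.09 (adjusted p = 0.00393). Pdia4 was lower in TRα1PV in M0 (-0.21 ± 0.05) and higher in M2 (0.26 ± 0.05).

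Lipid-handling genes also lay among the higher calls. Of 29 PPAR targets and fatty acid oxidation genes, 3 were called higher and 0 lower (0 also at an unadjusted p under 0.05 and by DESeq2 and limma-voom). Over all genes 0.701% were called higher, and the count of 3 was 5 without WT M0 replicate 2. Fabp4, a fatty acid-binding protein, had 43.2, 46.8, 46.3, 50.5 and 62.5 CPM in WT M0 and 26.9, 30.3, 32.7, 53.5 and 42.6 in TRα1PV M0. With IL-4 it had 131, 159, 151, 157 and 152 in WT and 209, 266, 245, 231 and 209 in TRα1PV. The genotypes overlapped in M0, where Fabp4 was called lower in TRα1PV, and were apart in M2, where it was called higher. The interaction of Fabp4 was 1.05 ± 0.21 (adjusted p = 0.00427). Fabp5, its relative, and Etfdh, which passes electrons from fatty acid oxidation to ubiquinone, had 0.78 ± 0.18 and 0.32 ± 0.07 (adjusted p = 0.0156 and 0.0132). Acaca and Fasn were the 2 calls among 38 cholesterol and fatty acid synthesis genes, whose median interaction was 0.22, with 34 members above zero and none called lower (0 lower also at an unadjusted p under 0.05 and by DESeq2 and limma-voom).

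Some larger interactions were of genes at low levels in TRα1PV M0. Cbr2, a carbonyl reductase, had 5.21 ± 0.831 CPM in WT M0 and 0.441 ± 0.104 in TRα1PV M0, and 24.4 ± 7.13 and 10.5 ± 3.07 in M2, for an interaction of 2.35 ± 0.37 (adjusted p = 4.35e-04). Mmp8, neutrophil collagenase, stayed lower in TRα1PV in both states, with log2 differences of -4.48 ± 0.23 and -3.24 ± 0.22 and an interaction of 1.24 ± 0.29 (adjusted p = 0.0156). It was the 1 call among 15 tested neutrophil markers (6.67%, against 2.16% of all genes tested). Of these, 13 were called higher in TRα1PV in M0 (median 1.30) and 9 in M2 (median 1.54), against 12.0% and 6.14% of all genes, and 2 were called lower in each state. The summed level of the 17 listed was 409 to 602 CPM in WT M0, 336 to 604 in TRα1PV M0, 362 to 462 in WT M2 and 288 to 424 in TRα1PV M2. Mmp8 and Csf3r, the 2 called lower, weigh heavily in this sum, which therefore does not describe the other markers. Csf3r alone had 169 to 253 CPM in WT M0, 93.0 to 116 in TRα1PV M0, 252 to 317 in WT M2 and 151 to 167 in TRα1PV M2. Mmp8 had 60.2 to 93.2 CPM in WT M0 and 2.08 to 4.03 in TRα1PV M0. Trnp1, a nuclear protein known from neural progenitors, had 1.24 ± 0.22 (adjusted p = 0.00144), and Bex3 0.78 ± 0.12 (adjusted p = 4.35e-04), lower in TRα1PV in M0 and higher in M2.

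Cald1, caldesmon of the actin cytoskeleton, had 2.55, 4.72, 1.74, 3.30 and 3.87 CPM in WT M0, 1.10, 0.970, 1.28, 1.29 and 1.89 in TRα1PV M0, 17.6, 19.2, 13.5, 18.8 and 14.7 in WT M2 and 31.8, 37.3, 23.7, 21.0 and 25.5 in TRα1PV M2. The lowest WT M0 library lay below the highest TRα1PV M0 library, the M2 ranges did not overlap, and the interaction was 2.04 ± 0.30 (adjusted p = 2.07e-04). Htra1, a secreted serine protease, had 1.79 ± 0.31 (adjusted p = 0.00101) at means of 1.12 ± 0.264, 0.327 ± 0.108, 1.60 ± 0.407 and 1.66 ± 0.412 CPM in the same order of groups, and Postn, the matrix protein periostin, 3.47 ± 0.61 (adjusted p = 0.00123) with 0.151 ± 0.165 CPM in TRα1PV M0 and 4.10 ± 0.971 in TRα1PV M2. Nid1, the basement membrane protein nidogen 1, lay below the level limit for named genes and was named after its values were seen, since its p was smaller than that of Klf9. Its interaction was 3.98 ± 0.50 (adjusted p = 4.86e-05), with a genotype difference of -3.41 ± 0.40 in M0 and 0.57 ± 0.29 in M2. Fibroblast and stromal markers, of which Postn is one, were examined beside these genes. The summed level of the 15 markers, each of which had reads, was 9.92 to 33.1 CPM in WT M0, 2.64 to 4.95 in TRα1PV M0, 7.04 to 20.8 in WT M2 and 4.75 to 7.73 in TRα1PV M2. Postn is part of this sum, which is not TMM-scaled. In TRα1PV M2 Postn made up most of it, with a mean of 4.10 CPM beside a mean sum of 6.60. In TRα1PV M0 these means were 0.151 and 3.355, and no WT M0 or M2 library had more than 2.61 CPM of Postn. The higher sum in TRα1PV M2 than in TRα1PV M0 therefore rests on Postn. Of 11 tested markers, 1 was called higher in the interaction (9.09%, against 0.701% of all genes tested). All 11 were called lower in TRα1PV in M0 (14.0% of all genes were). In M2, 8 were called lower in TRα1PV and 1 higher (6.96% and 6.14% of all genes were). The median response of these markers to IL-4 was -0.94 in WT and -0.45 in TRα1PV, whereas Cald1 rose in both genotypes. The part of stromal RNA in the values of Cald1, Htra1, Nid1 and Postn was not tested.

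**Figure D5:**
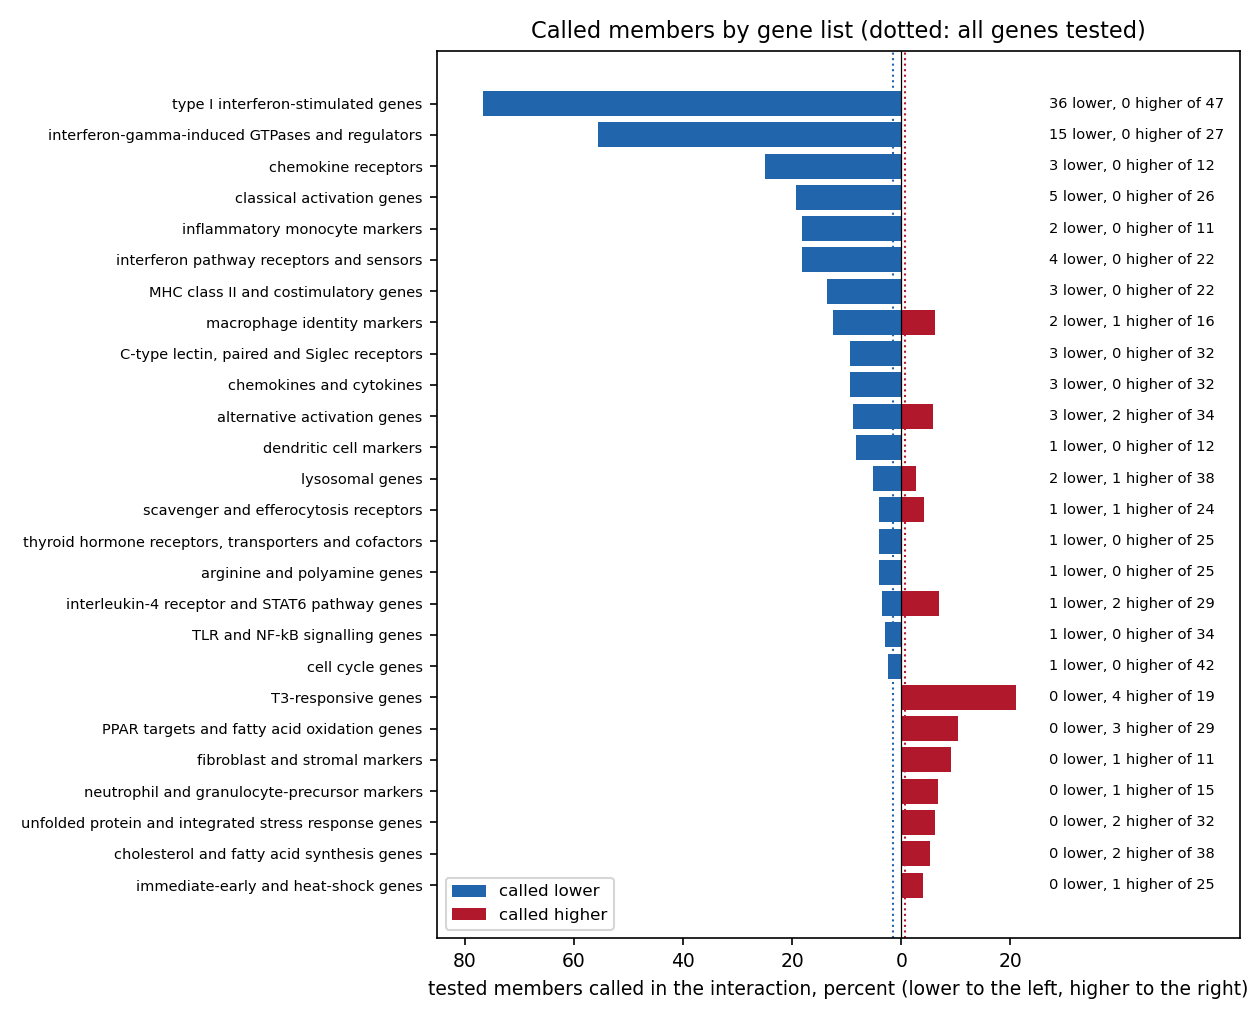
Share of tested members called in the interaction for the 26 gene lists with at least 10 tested members and at least 1 call, lower calls to the left in blue and higher calls to the right in red, with the counts beside each bar. Dotted lines mark the shares over all genes tested, 1.46% lower and 0.701% higher. The 2 interferon lists reach 76.6% and 55.6%.

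The genotype difference in M2 was also set against that in M1, the state made with lipopolysaccharide and interferon-γ at 20 ng/mL each. Over all genes, 3418 (21.8%) differed between these polarized states, compared with 27.3% of the 110 genes called higher in the interaction (30 genes) and 29.3% of the 229 called lower (67 genes). In the type I interferon list, 4 of 47 members differed between M2 and M1, 2 in each direction. Mx1 had 2569 ± 314 CPM in WT M1 and 3087 ± 58.4 in TRα1PV M1, and the M2 minus M1 difference of its genotype effects was -0.12 ± 0.25 (adjusted p = 0.763). Klf9 differed, by 2.88 ± 0.21 (adjusted p = 3.01e-10), with 27.5 ± 5.83 CPM in WT M1 and 0.747 ± 0.173 in TRα1PV M1. Prps1 differed by 1.33 ± 0.15 (adjusted p = 9.79e-07), and Kdm6b did not pass the test, at -0.22 ± 0.10 (adjusted p = 0.0892).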

How the data were processed

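RNA of 30 mouse macrophage libraries was sequenced (poly(A) selection, KAPA mRNA HyperPrep, per the labels' protocols). The authors deposited raw read counts per gene for each library, in genes of GRCm39 and made with Trimmomatic 0.39, HISAT2 2.2.1 and HTSeq 1.99.2, per the submitters' processing notes. Neither the annotation release nor the strand setting is given in the sources used here, so overlapping and antisense genes cannot be told apart, and near-identical copies can lose reads. Each table had 55414 gene rows, 52081 of them with a symbol, and 5 rows for reads given to no gene, which were left out. The share of reads outside genes, 8.95 to 14.4% in the M0 and M2 libraries, counts only 1 of these rows, reads that met no gene. It is taken over those reads, ambiguous reads and reads in genes. Alignments that were not unique, also left out, numbered 6.48 to 10.8% of the reads in genes.

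Groups came from the sample titles. Genes were filtered with filterByExpr (minimum count 10, minimum total 15) and scaled by TMM, and edgeR 4.0.16 (R 4.3.3) fitted 1 quasi-likelihood model of 6 group means to all 30 libraries with 24 residual degrees of freedom. Tests were two-sided, with Benjamini-Hochberg adjustment over 15686 genes, and every adjusted p printed is from it. Standard errors are the absolute log2 difference over the square root of F. CPM are TMM-scaled and not per length, so levels are compared within a gene. Alternatives were DESeq2 1.42.0, limma-voom (limma 3.58.1), other scaling, filters, covariates and left-out libraries. In simulated counts for 15550 genes, the interaction test recovered 49.3% of 67 genes changed 1.5-fold, 88.1% of 67 changed 2-fold and 98.5% of 66 changed 4-fold, with 7 false among 164 calls. The changed genes were drawn only from genes with mean counts well above the filter, so recovery at low levels was not tested.

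The labels give each library a number under a tag for batch. It was taken as a shared batch only in the alternatives with a replicate block, and the main fit has no term for it. Deviations of same-numbered libraries correlated at -0.374 to 0.259 between the genotypes in M0, -0.0229 to 0.212 in M2, -0.240 to 0.321 between M0 and M2 in WT and -0.0427 to 0.331 in TRα1PV. Between M0 and M2 in TRα1PV the mean was 0.184, against -0.0459 for libraries of other numbers, and in WT 0.0527 against -0.0120. Between the genotypes it was -0.0680 against 0.0160 in M0 and 0.0784 against -0.0198 in M2. Replicate libraries of a group differed by more than sampling noise in all 60 pairs (chi-square over degrees of freedom 6.19 to 186).

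The 41 gene lists (992 of 993 symbols matched, 18 through an older name) and the members were chosen with earlier results of these data known. Named genes are Thra and Thrb, and per direction the 10 called genes with the smallest p and the 6 that changed most, among genes whose mean log2 CPM was 0 or more. The 6 with the smallest p among genes of opposite genotype effects were added, with up to 4 called members and the 2 most abundant members per list. Gene models without a name were passed over, and the text names a part of these. Values of some single genes are not reported here.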

Additional observations from a re-analysis of the deposited data

Results flagged for a closer look

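The difference between the states was itself tested for every gene, so the 110 genes called higher and the 229 called lower are listed here as effects that differ between groups. So are 6 genes whose genotype effects were called with opposite signs in M0 and M2, with interactions (log2) of -1.45 for Tagap, -1.25 for Rnase6, 2.04 for Cald1, 0.47 for Pdia4, 0.78 for Bex3 and -0.83 for Frmd4a.

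Single libraries lay far from the rest of their group in 11 of 288 groups of values examined (3.82%), where chance gives about 1 in 20. In TRα1PV M2 replicate 1, Trnp1 stood at 5.59 CPM (others 4.07 to 4.23), St8sia1 at 30.7 (others 20.6 to 22.4) and Il1rl1 at 9.36 (others 3.56 to 5.19). In TRα1PV M0 replicate 4, Il1rl1 stood at 1.27 CPM (others 2.13 to 2.44) and Etfdh at 44.8 (others 41.0 to 41.7). Il1rl1 also stood at 1.07 CPM in WT M0 replicate 2 (others 0.595 to 0.708). Postn stood at 0.444 CPM in TRα1PV M0 replicate 5 (others 0.0524 to 0.103), and Ifi209 at 61.2 in TRα1PV M2 replicate 4 (others 33.7 to 41.4). Atp2a2 stood at 360 CPM in WT M2 replicate 1 (others 376 to 383). WT M2 replicate 3 had the fewest reads in genes of its group, 23.02 Mreads (1e6 reads), where the others had 31.6 to 34.4. WT M2 replicate 4 had 10.8% of reads outside genes (others 8.95 to 9.31%).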

How the results depend on the processing

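No gene called in the interaction and followed through the 29 alternatives changed direction in any; genes named after their values were seen were not followed. The 110 higher calls became 214 with DESeq2, 66 with no filter on low counts, 215 with the percentage of reads outside genes in the model, and 231 without both M0 libraries numbered 2, and the 229 lower calls became 364 with that term. Leaving out 1 library at a time gave 70 to 205 higher and 179 to 306 lower calls, the largest of both without WT M0 replicate 2, and 2941 to 6143 genotype calls in M0 and 1270 to 2900 in M2. Without both M0 libraries numbered 2 the M0 genotype calls numbered 6407. The share of higher among all calls was 32.5% as reported, 47.2% without both M0 libraries numbered 2 and 43.3% without TRα1PV M0 replicate 4. With the replicate block there were 145 higher and 274 lower calls, including 332 of the 339, and with the block within genotype 126 and 277. That second block was not run for the genotype effects, which lie between its levels. The other counts were 103 and 231 with DESeq2's size factors in edgeR, 136 and 219 with limma-voom, and 93 and 214 with the M0 and M2 libraries only. The cause of these shifts was not tested. Of 59 called genes checked, 45 were called under every alternative and 14 lost the call under at least 1.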

Other observations

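Genes of energy metabolism and of translation had few or no calls. None of 71 nuclear oxidative phosphorylation genes, 25 tricarboxylic acid cycle genes, 38 glycolysis genes and HIF-1 targets, 22 NRF2 targets, 17 LXR targets and 47 ribosomal protein genes was called by edgeR, DESeq2 or limma-voom. At an unadjusted p under 0.05 in edgeR, 3, 3, 7, 1, 4 and 0 members were higher and 0, 0, 1, 0, 1 and 0 lower, in the same order. Over the 29 alternatives, at most 2, 1, 3, 0, 2 and 0 members were called higher and at most 0, 0, 1, 0, 1 and 0 lower. The 13 mitochondrially encoded genes had a median interaction of 0.63, with 0 called by any of these tools and 0 at an unadjusted p under 0.05 in either direction. The share of mitochondrial reads was 0.921 to 4.56% in WT M0, 1.5 to 2.59% in TRα1PV M0, 1.80 to 3.83% in WT M2 and 2.70 to 4.06% in TRα1PV M2, and the highest WT M0 value was that of replicate 2.

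Cell cycle genes had a median interaction of -0.25 over 42 tested members, with 1 called lower (2.38%, against 1.46% of all genes), E2f8, named to complete the count, which lost its call in 12 of 29 alternatives. With 1 library left out, 0 to 3 were called lower, 3 of them without WT M0 replicate 1. Their median IL-4 response was 1.30 in WT and 1.01 in TRα1PV. B cell markers had summed levels of 223 to 292 CPM in WT M0 and 13.8 to 19.6 in TRα1PV M0, and of 71.8 to 81.3 in WT M2 and 5.57 to 8.36 in TRα1PV M2. The sum was mostly Ighm, the IgM heavy chain, at 230.2 ± 22.3 CPM in WT M0 and 7.28 ± 1.48 in TRα1PV M0, whereas Cd79b, of the B cell receptor complex, had 4.61 ± 1.08 and 6.55 ± 1.22. These 2 of the 10 listed could be tested in the interaction, and 0 were called by edgeR, DESeq2 or limma-voom, with 0 at an unadjusted p under 0.05.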
